A study of Mus musculus with 33 samples.

Results

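The RNAs described here are 8 short structured noncoding RNAs of mouse forebrain: 7SK (gene Rn7sk), the RNA of RNase MRP (Rmrp), the RNA of RNase P (Rpph1), 7SL (Rn7s1 and Rn7s2), the Y RNAs Rny1 and Rny3, and the telomerase RNA Terc. They were picked by symbol from 54752 genes of the forebrain files, and 8 of 8 were found. The choice was made with results of these forebrain libraries known, since 7SK had passed the test in the knockout mice of 1 background. All forebrain values of the 8 genes are therefore given as a description, with no p-value. Counts of members passing a test are also given only as a description. Apart from Terc, which vertebrates make with RNA polymerase II, these RNAs are products of RNA polymerase III, the enzyme that also makes transfer RNAs.

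The mice compared carried different forms of n-Tr20, a neuronal arginine tRNA. Total RNA without ribosomal RNA was read from the forebrain of 20 mice aged 8 weeks, in 5 groups of 4. These were C57BL/6J (B6J) mice with n-Tr20 -/- (B6J knockout), B6J mice, which are hypomorphic for n-Tr20, B6J mice with Tg(n-Tr20), a transgene of the B6N form (B6J transgenic), C57BL/6NJ (B6N) mice with n-Tr20 -/- (B6N knockout), and B6N mice with wild-type n-Tr20. The labels used here give no promoter or founder line for the transgene and no design for the deletions. All B6J knockout libraries were labelled batch 2 and all other groups batch 1, and B6J transgenic mouse 4 was sequenced in both, giving 21 libraries. Hippocampus was also profiled, with 3 B6N knockout and 3 B6N libraries each for poly(A)-selected RNA and for ribosome footprints. The tissue labels fit the markers, since in every forebrain library the lowest of 8 markers of forebrain neurons was at 13.2 counts per 1000000 (CPM) or more.

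Polymerase III reads several kinds of promoter. Rn7sk, Rmrp, Rpph1 and the Y RNAs are driven from upstream elements bound by the SNAPc complex, tRNA genes from elements inside the gene, and 7SL from a mixture of both. 7SK holds the elongation kinase P-TEFb inactive together with the proteins Hexim1, Larp7 and Mepce. RNase P trims the leader of precursor tRNAs, RNase MRP acts on precursor ribosomal RNA, 7SL is the scaffold of the signal recognition particle that docks ribosomes at the endoplasmic reticulum, and Y RNAs bind the Ro60 protein and take part in RNA quality control and DNA replication.

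Positions are from RefSeq on GRCm38.p6, the assembly behind the mm10 build that the submitters name. Rn7sk (ENSMUSG00000065037.1) lies on chromosome 9 at 78175302 to 78175633. Rpph1 (ENSMUSG00000092837.1) lies on chromosome 14 at 50807447 to 50807771, and Rmrp (ENSMUSG00000088088.1) on chromosome 4 at 43492785 to 43493059. Rn7s1 (ENSMUSG00000099021.1) and Rn7s2 (ENSMUSG00000099250.1) are neighbours on chromosome 12, at 69159295 to 69159593 and 69361183 to 69361481. Rny3 (ENSMUSG00000064945.1) and Rny1 (ENSMUSG00000065701.1) are neighbours on chromosome 6, at 47781624 to 47781724 and 47788070 to 47788180. Terc (ENSMUSG00000064796.1) lies on chromosome 3 at 96414437 to 96414833. Each gene has a single transcript model in the files, between 102 and 423 nucleotides long.

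Levels are CPM of estimated counts, scaled by trimmed mean of M values (TMM). Library totals, in units of 1000000 counts (M), ran from 14.7 M to 38.5 M. The Rn7s1 and Rn7s2 values were equal in 21 of 21 libraries, so reads of these near-identical copies had been split evenly and only their sum, called 7SL here, has a meaning. The chi-square of replicate pairs over its degrees of freedom was 2.75 or more in 30 of 30 pairs, so every pair differed by more than counting error. Some libraries stood apart from their group. B6J knockouts 1 to 3 held Xist at 328 to 354 CPM and Ddx3y at 0.145 to 1.01 CPM, the female pattern, while B6J knockout 4 held Xist at 2.12 CPM and Ddx3y at 74.1 CPM and every other forebrain library had Ddx3y at 48.5 CPM or more. Mitochondrial ribosomal RNA took 11.2% and 11.9% of counts in B6J knockouts 1 and 2, against 6.40% to 8.07% in the other 19 libraries, and 1 processed pseudogene, Gm19220, reached 30064 CPM in B6J knockout 3, against at most 306 CPM in B6J mice. The 17 choroid plexus markers summed to 785 to 1058 CPM in B6J knockout libraries, 196 to 912 CPM in B6J, 215 to 287 CPM in B6J transgenic and 264 CPM in the repeat library. In bulk tissue, fewer cells of a type and less RNA per cell cannot be told apart.

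The 8 RNAs together took 10.8% to 12.8% of all counts in the 16 batch 1 libraries, most of it 7SL. In batch 2 they took 7.36% to 9.12% in the 4 B6J knockout libraries and 5.70% in the repeat library of transgenic mouse 4. 7SL alone accounted for 5.29% to 6.73% of counts in B6J knockout libraries, 4.17% in the repeat library and 8.35% to 10.2% in batch 1. The ranges of batch 2 and batch 1 do not overlap.

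Per kilobase of annotated length, the batch 1 medians of the level ran in the order 7SL (300002 CPM per kb), Rn7sk (60381), Rpph1 (9027), Rny3 (4846), Rmrp (4109), Rny1 (2533) and Terc (1.38). 7SL and Rn7sk ranges were clear of each other and of all others. Rny3 (2805 to 6706 CPM per kb) overlapped Rmrp (3332 to 4892 CPM per kb), so these neighbours in the order did not differ beyond their spread. When the authors' effective lengths were used in place of annotated lengths (their TPM), both Y RNAs moved above Rpph1 and Rmrp, with medians of 19313 TPM for Rny3, 8411 for Rny1, 7054 for Rpph1 and 3578 for Rmrp. The TPM ranges of Rny1 (6066 to 10960) and Rpph1 (5978 to 7915) overlap, so Rny1 and Rpph1 did not differ beyond their spread. The order of the Y RNAs among the ribozyme RNAs, by median, therefore hangs on the length used. Terc was near the limit of detection, with 5 to 18 counts per library in batch 1.

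**Figure D1:**
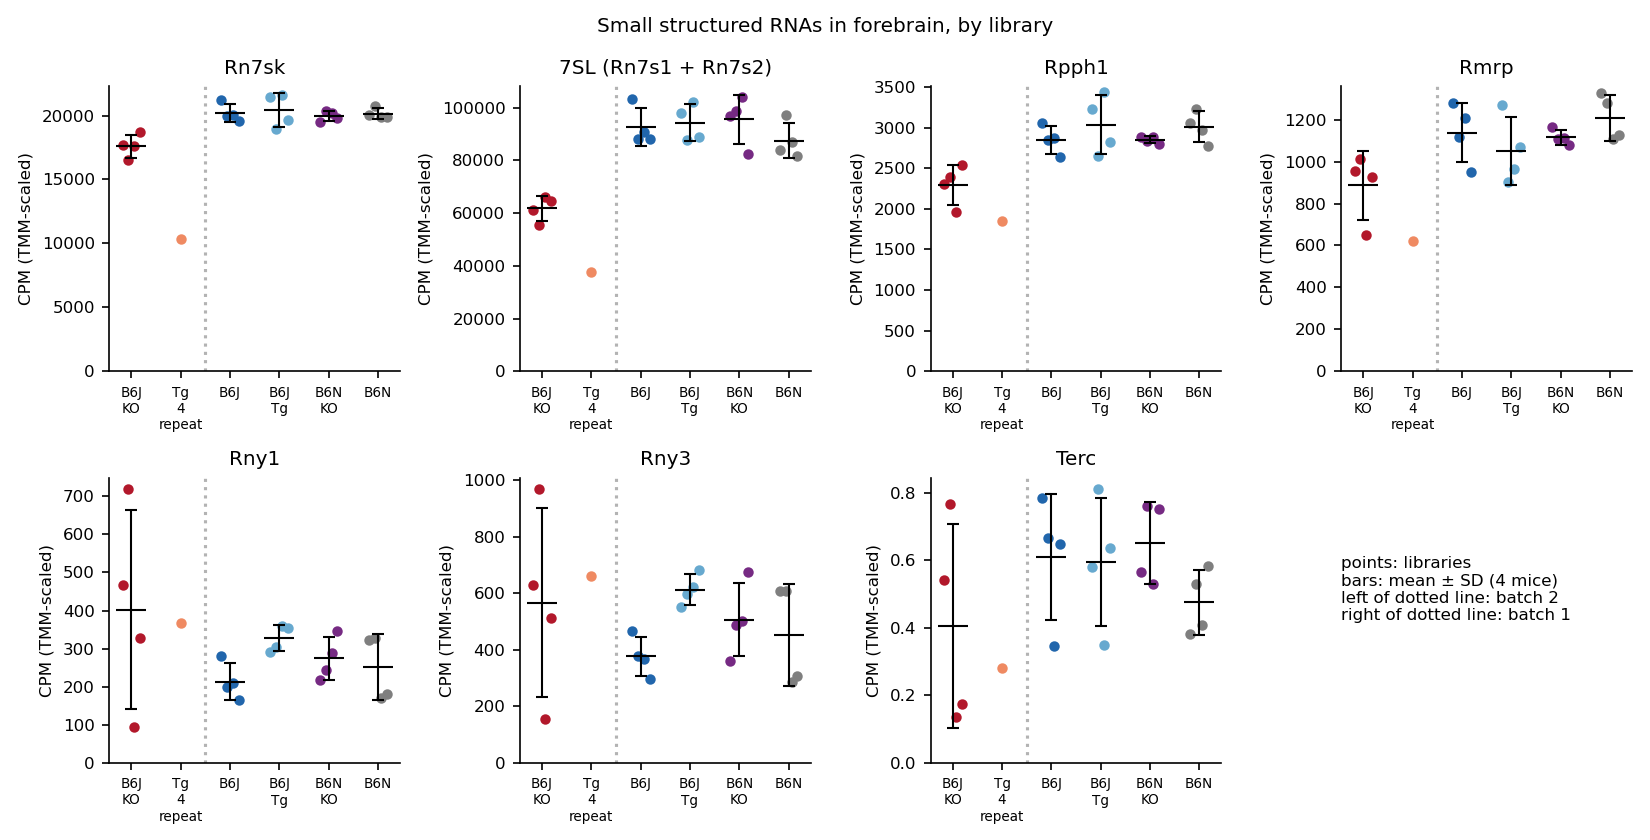
TMM-scaled CPM of each RNA (vertical axis, from 0) in the 21 forebrain libraries, by group along the horizontal axis: points are libraries, bars the mean ± SD of 4 mice, and the dotted line separates batch 2 on its left from batch 1 on its right. Rn7sk lies between 18963 and 21590 CPM in all 16 batch 1 libraries, between 16490 and 18688 in B6J knockout libraries and at 10330 in the repeat library; the Y RNAs spread widely within groups.

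Rn7sk had the smallest spread within groups of the set across the 4 groups sequenced together. Rn7sk had 21209, 19932, 20040 and 19551 CPM in B6J forebrain, against 21479, 18963, 21590 and 19670 CPM in B6J transgenic forebrain. It had 19529, 20358, 20172 and 19768 CPM in B6N knockout forebrain, against 20077, 20737, 19870 and 19908 CPM in B6N forebrain. All 4 groups overlap. The coefficient of variation over the 16 libraries was 3.63%, and the SD within groups was 0.057 on the log2 scale, beside a median of 0.054 over the 1742 genes above 100 CPM.

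In the 4 comparisons within batch 1, edgeR (quasi-likelihood, adjusted p under 0.05) called 0 of the 8 RNAs. The shares of all 25151 genes called were 1.91% for B6N knockout minus B6N, 0.25% for B6J minus B6J transgenic, 1.73% for B6J minus B6N and 0.366% for B6J transgenic minus B6N. At an unadjusted p under 0.05 the counts of members were 0, 2, 0 and 0 in the same order, the 2 being Rny1 and Rny3, and DESeq2 called 0 in each. The comparisons share groups, so their values for a gene are not independent of each other.

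With n-Tr20 deleted on the B6N background, the log2 fold change of Rn7sk was -0.01 ± 0.04 (SE). In B6J minus B6J transgenic mice it was -0.02 ± 0.04, in B6J minus B6N mice 0.01 ± 0.04 and in B6J transgenic minus B6N mice 0.02 ± 0.04. These differences were smaller than their errors.

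7SL had 96833, 98815, 104236 and 82392 CPM in B6N knockout forebrain, against 84049, 97227, 87162 and 81829 CPM in B6N forebrain. The groups overlap, and the log2 fold change per copy was 0.13 ± 0.08. It was -0.02 ± 0.08 in B6J minus B6J transgenic mice, 0.09 ± 0.08 in B6J minus B6N mice and 0.11 ± 0.08 in B6J transgenic minus B6N mice. The ratio of Rn7sk to 7SL stayed between 0.194 and 0.243 in the 16 libraries.

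The RNase P RNA averaged 2852 ± 41.5 CPM in B6N knockout and 3011 ± 191 CPM in B6N mice (SD, n = 4 each), with a log2 fold change of -0.08 ± 0.08. Rpph1 averaged 2853 ± 173 CPM in B6J and 3040 ± 359 CPM in B6J transgenic mice, with a log2 fold change of -0.09 ± 0.08. The RNase MRP RNA averaged 1116 ± 37.7 CPM in B6N knockout and 1209 ± 110 CPM in B6N mice (-0.12 ± 0.11 on the log2 scale), and 1138 ± 141 CPM in B6J and 1051 ± 162 CPM in B6J transgenic mice (0.12 ± 0.11). The group ranges of both ribozyme RNAs overlap in each of these comparisons. Terc, at 10, 17, 12 and 18 counts in B6N knockout and 8, 12, 10 and 14 in B6N libraries, allowed no finer statement at this depth (0.45 ± 0.30).

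The Y RNAs behaved unlike the longer members. Rny3 had 466.9, 376.6, 366.8 and 297.2 CPM in B6J forebrain, against 551.1, 596.4, 622.1 and 684.0 CPM in B6J transgenic forebrain. Rny1 had 279.4, 197.9, 208.7 and 164.9 CPM in B6J forebrain, against 292.1, 304.1, 359.7 and 354.1 CPM in B6J transgenic forebrain. Every B6J library lay below every B6J transgenic library for these 2 of the 8 members, a pattern that 2.47% of all genes share, and 0 of 8 lay above (2.56% of genes). In the other comparisons within batch 1, 0 of 8 members had groups that did not overlap, where 4.14% of genes lay below and 4.44% above in B6N knockout minus B6N, 3.92% below and 5.14% above in B6J minus B6N, and 2.42% below and 2.39% above in B6J transgenic minus B6N mice. The log2 fold changes were -0.70 ± 0.27 for Rny3 and -0.62 ± 0.24 for Rny1, and neither was called.

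On the B6N background the Y RNAs overlapped between genotypes. Rny3 had 359.9, 486.8, 501.9 and 674.6 CPM in B6N knockout forebrain, against 609.0, 608.6, 286.1 and 308.5 CPM in B6N forebrain. Rny1 had 218.2, 243.9, 288.0 and 347.5 CPM in B6N knockout forebrain, against 323.0, 328.3, 171.3 and 181.8 CPM in B6N forebrain. B6N mice 1 and 2 lay above B6N mice 3 and 4 for both RNAs, and the B6N knockout mice were spread over the same range and, at their highest, above it. The within-group SD was 0.38 for Rny3 and 0.34 for Rny1 on the log2 scale, the widest of the set after Terc.

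The pair of Y RNAs moved together from library to library. Their Pearson correlation over the 16 batch 1 libraries was 0.98 (Spearman 0.97, and 0.97 by Pearson without the 2 libraries farthest from the median), given as a description since the points share library preparation and RNA quality. Rny1 was 0.501 to 0.606 of Rny3 in every batch 1 library. Rny3 correlated at 0.90 with Rnu12, a small nuclear RNA of the minor spliceosome that polymerase II makes, and at 0.88 with Bc1, a neuronal polymerase III RNA with an internal promoter. It correlated at 0.28 with Rn7sk.

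Length, which the choice of members did not use, was set beside these differences. Of 251 other small RNAs under 200 nucleotides (small nuclear, nucleolar, Cajal body and miscellaneous classes in the files), 199 had a lower estimate in B6J than in B6J transgenic mice, with a median log2 fold change of -0.25. Of 92 at or over 200 nucleotides, 52 had a lower estimate, with a median of -0.02, and the median of all 25151 genes was -0.0013. In B6J transgenic minus B6N mice 183 of the 251 short RNAs (median 0.17) and 56 of the 92 longer ones (median 0.03) had a higher estimate. In B6N knockout minus B6N mice 159 of the 251 (median 0.13) and 60 of the 92 (median 0.08) did, so the short and the longer RNAs had like shares there. Single longer RNAs also lay far from 0 in B6J minus B6J transgenic mice. The U3 RNA Rnu3a lay at -0.59 in its entry of 213 nucleotides and at 0.48 in that of 214. Reads of these close copies could be split. Of the 251 short RNAs, 2 were called in B6J minus B6J transgenic mice, where 0.25% of all genes were. In B6J transgenic minus B6N mice 4 were called (0.366% of all genes), and in B6N knockout minus B6N mice 1 (1.91%). Of the 92 longer ones 0, 0 and 1 were called in the same order. Some entries had equal estimates, among them Rnu1a1 and Gm22068 at -0.12 each, so these counts are of entries and not of separate RNAs. The classes and the limit of 200 nucleotides were chosen after the values were seen. Class also changed with length. Most entries at or over 200 nucleotides were of the miscellaneous class, and most shorter ones were small nuclear or nucleolar RNAs. The parts of length and class were not tested apart. The median effective length that the authors' software gave to the 1664 transcripts of about the length of the Y RNAs, which reflects fragment sizes, was 15.2 to 16.2 nucleotides in B6J libraries and 15.5 to 18.1 in B6J transgenic libraries. Its part in the Y RNA difference was not tested.

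**Figure D2:**
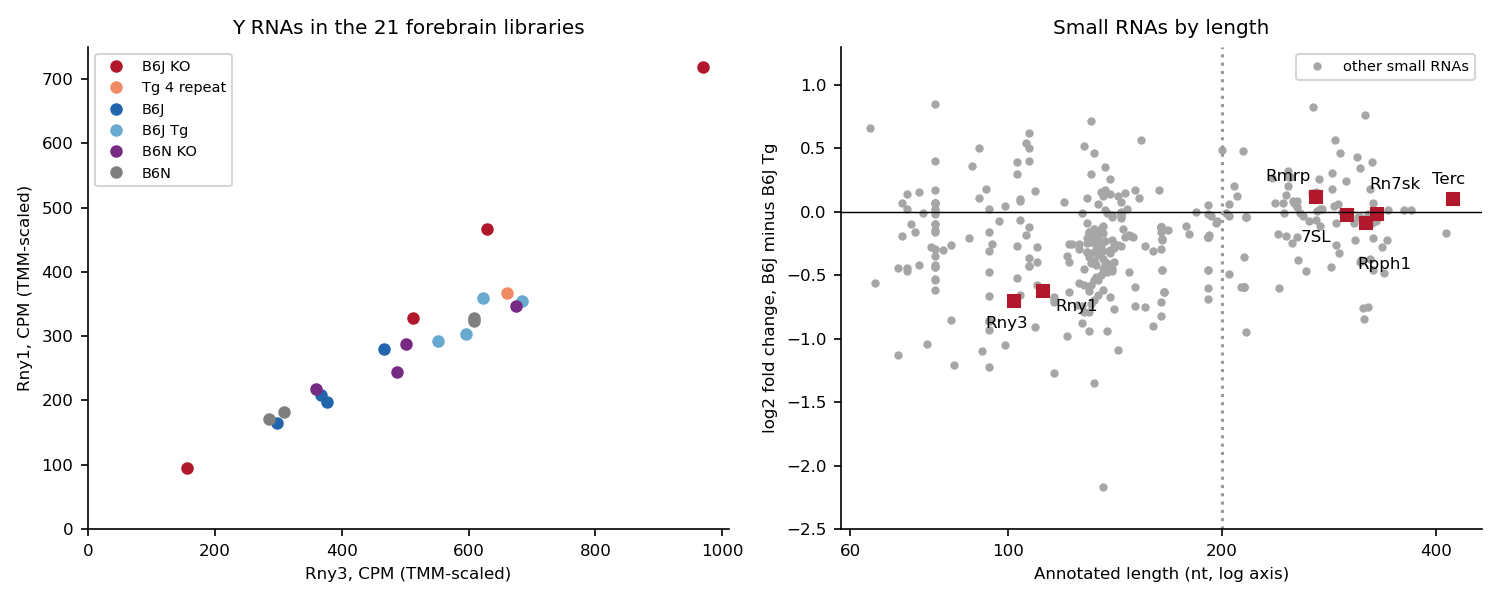
Left, Rny1 against Rny3 in CPM for the 21 forebrain libraries, coloured by group; right, log2 fold change of B6J minus B6J transgenic mice against annotated length in nucleotides (log axis) for the other small RNAs (grey) and the RNAs described here (red squares), with a dotted line at 200. The Y RNAs lie among short RNAs whose median is -0.25, the median of the longer RNAs is -0.02 with single ones far from 0, and 1 grey point, the small nuclear RNA Gm24924 at -8.05, is below the axis.

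The mouse that was sequenced in both batches served as the batch check, with 1 library per batch and no test. Rn7sk was 10330 CPM in the batch 2 library of transgenic mouse 4, against 19670 CPM in its batch 1 library. That is a log2 difference of -0.93, and 2.86% of 27180 genes had a lower one. 7SL was 37548 CPM in the batch 2 library and 89079 CPM in the batch 1 library, a log2 difference of -1.25, with 1.62% of genes lower. Rmrp differed by -0.78 and Rpph1 by -0.61 in the same direction. Over all genes the median difference was -0.02, and the interval holding the middle of the distribution from the 5th to the 95th percentile ran from -0.70 to 0.74.

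The Y RNAs did not follow. Rny3 was 660.4 CPM in the batch 2 library and 684.0 CPM in the batch 1 library (-0.05), and Rny1 was 367.0 CPM and 354.1 CPM in the same order (0.05). Terc had 12 counts in the batch 2 library and 11 in the batch 1 library. The TMM factor of the repeat library was 1.11, against 0.958 to 1.04 in the other 20, and without TMM scaling the median of all genes shifted to 0.12 and the difference of Rn7sk to -0.79, that is -0.91 relative to that median. On the authors' TPM scale the difference of Rn7sk was -0.59 and that of Rpph1 -0.07, so the size of the batch difference depends on how length is handled while the sign for Rn7sk and 7SL (-0.48) does not. By TPM the Y RNAs were higher in the batch 2 library, by 0.40 for Rny3 and 0.50 for Rny1. Their near equality between the batches in CPM therefore also depends on how length is handled.

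**Figure D3:**
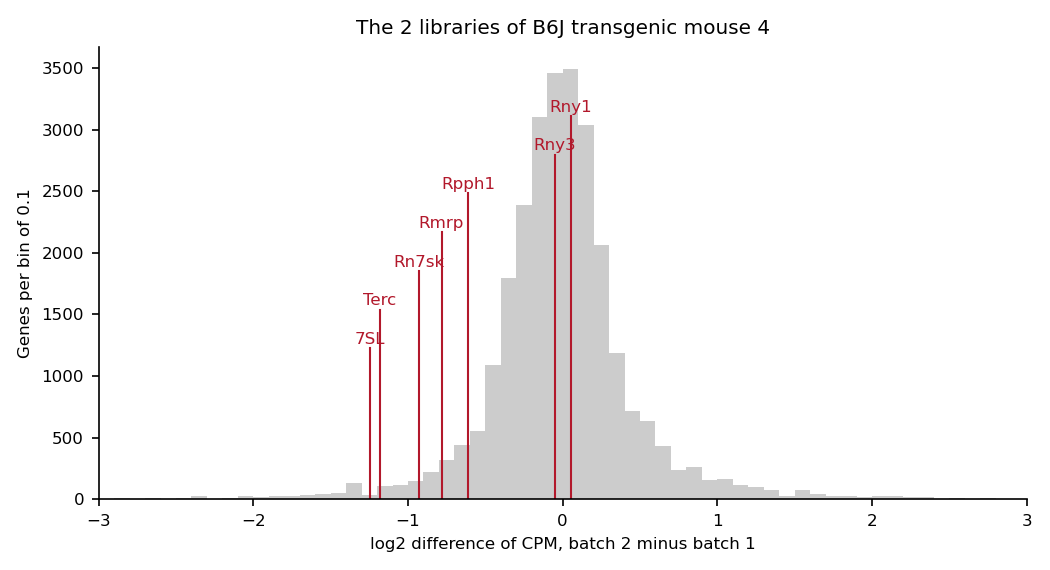
Histogram of the log2 difference of CPM between the batch 2 and the batch 1 library of B6J transgenic mouse 4 for 27180 genes (vertical axis: genes per bin of 0.1), with the RNAs described here as red lines. 7SL, Terc, Rn7sk and Rmrp lie below the 5th percentile of genes, and Terc rests on 12 and 11 counts. Rpph1 lies left of the centre but within the 5th to 95th percentiles, and Rny1 and Rny3 lie at the centre.

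How the batch difference is treated decides the direction of 7SK in B6J knockout mice. Rn7sk had 17674, 16490, 17587 and 18688 CPM in the 4 B6J knockout libraries, against 21479, 18963, 21590 and 19670 CPM in the batch 1 libraries of the B6J transgenic mice. Every B6J knockout library lay below every B6J transgenic library of batch 1, and each lay 1.60 to 1.81 times above the 10330 CPM of the repeat library. In the fit of all 21 libraries, in which the pair of libraries of transgenic mouse 4 sets the batch term, the log2 fold change of Rn7sk was 0.72 ± 0.08 in B6J knockout minus B6J transgenic mice and 0.73 ± 0.09 in B6J knockout minus B6J mice. In that fit 1 of the 8 members, Rn7sk, was called in each comparison, where 0.6% and 0.0945% of 27500 genes were called; the members were chosen from these contrasts, so nothing is read from the count. At an unadjusted p under 0.05 edgeR had 3 of the 8 in each, and DESeq2 called 3 in each, Rn7sk, Rn7s1 and Rn7s2. Rn7s1 and Rn7s2 had equal values in every library and are not separate measurements, and nothing is read from these counts either. Without a batch term and without the repeat library, a setting chosen after the data were seen, the same differences were -0.21 ± 0.04 and -0.20 ± 0.04.

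Within batch 2 alone, the mean of the 4 B6J knockout libraries was 0.77 above the repeat library on the log2 scale, a comparison with 1 library. B6J knockout 4, the library with the male pattern of Xist and Ddx3y like the repeat, was 1.81 times the repeat. The repeat library of transgenic mouse 4 carries the direction: with it left out, batch and knockout cannot be told apart. Leaving out each other library in turn kept the fitted difference of Rn7sk between 0.68 and 0.75 against B6J transgenic mice and between 0.70 and 0.76 against B6J mice. By TPM, Rn7sk was 64491, 49723, 77962 and 80264 in B6J knockout libraries, against 60411 to 65644 in batch 1 libraries of B6J transgenic mice and 41280 in the repeat library. On that scale the B6J knockout libraries overlap those of batch 1 and all 4 lie above the repeat. An offset for transcript length in the fit gave 0.84 ± 0.13 against B6J transgenic mice and 0.79 ± 0.14 against B6J mice, and Rn7sk was no longer called in the second.

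7SL followed the same course with a wider error. It had 61134, 55318, 66096 and 64780 CPM in B6J knockout libraries, against 87920 to 102377 CPM in batch 1 libraries of B6J transgenic mice and 37548 CPM in the repeat library. The fitted log2 fold change per copy was 0.64 ± 0.17 in B6J knockout minus B6J transgenic mice, -0.61 without a batch term and 0.35 ± 0.19 with the batch term and an offset for transcript length. Rpph1 gave 0.21 ± 0.17 with and -0.40 without the batch term, and Rmrp 0.54 ± 0.28 and -0.25. The ratio of Rn7sk to 7SL in estimated counts, which TMM scaling does not change, was 0.266 to 0.298 in B6J knockout libraries, 0.275 in the repeat library and 0.194 to 0.243 in batch 1. In counts the repeat library lay within the B6J knockout range, and both lay above all 16 batch 1 libraries. By TPM the ratio was 0.236 to 0.269 in B6J knockout libraries, 0.184 in the repeat library and 0.178 to 0.224 in batch 1. On that scale the repeat lay within the batch 1 range and all 4 B6J knockout libraries lay above both.

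**Figure D4:**
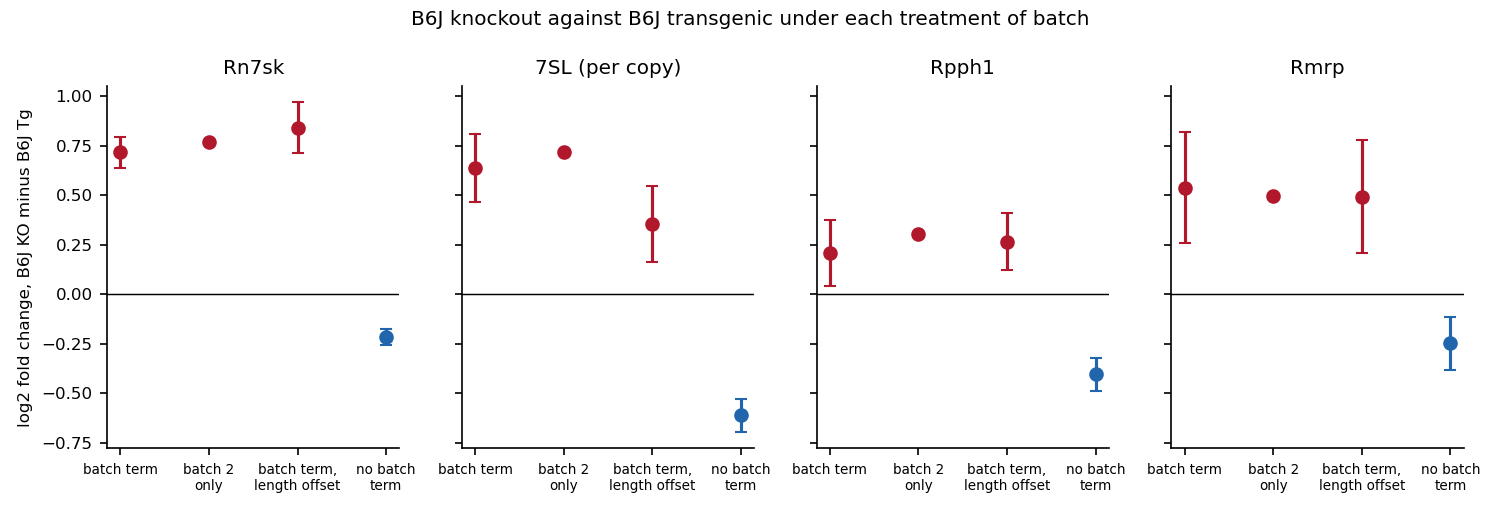
Log2 fold change of B6J knockout minus B6J transgenic mice for the 4 most abundant longer RNAs (vertical axis) with a batch term set by transgenic mouse 4, within batch 2 against its 1 repeat library, with a batch term and an offset for transcript length, and with no batch term; bars are SE, and the comparison within batch 2 has none. The first 3 estimates are above 0 for each RNA and the last is below 0, for Rn7sk at 0.72, 0.77, 0.84 and -0.21.

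The Y RNAs gave no difference beyond its error in B6J knockout mice. Rny3 had 628.5, 969.4, 156.5 and 512.5 CPM in B6J knockout libraries, against 551.1 to 684.0 CPM in batch 1 libraries of B6J transgenic mice and 660.4 CPM in the repeat library. Rny1 had 467.3, 718.5, 95.1 and 328.7 CPM in B6J knockout libraries, against 292.1 to 359.7 CPM and 367.0 CPM. The highest of these was B6J knockout 2 and the lowest B6J knockout 3, the library with the pseudogene signal, whose median effective length of short transcripts was also the lowest of all at 14.6 nucleotides. The fitted differences from B6J transgenic mice, -0.06 ± 0.82 for Rny3 and 0.25 ± 0.85 for Rny1, were smaller than their errors. Leaving out B6J knockout 2 gave -0.45 for Rny3 and leaving out B6J knockout 3 gave 0.25, so single libraries turn its direction there. Against B6J mice the fitted differences were 0.64 ± 0.92 for Rny3 and 0.87 ± 0.95 for Rny1, also smaller than their errors. Leaving out each library in turn kept the sign against B6J mice, at 0.25 to 0.95 for Rny3 and 0.43 to 1.19 for Rny1. Rny1 was 0.608 to 0.744 of Rny3 in B6J knockout libraries, above the batch 1 range and the 0.556 of the repeat library. Terc, at 11, 12, 2 and 3 counts in B6J knockout libraries, could not be compared at this depth.

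Proteins that bind these RNAs or drive their promoters were measured in the same fits, from 6 lists of partners with 51 genes tested; they are not members, so their adjusted p-values are given. In B6N knockout minus B6N mice 3 of the 51 rose, or 5.88% beside 1.91% of all genes, and none fell (48 not called, 11 at an unadjusted p under 0.05). These were Ssb, which encodes La, the protein that binds the uridine tail of new polymerase III transcripts, Larp7, the La-related protein that stabilises 7SK, and Snapc1, a subunit of the complex at upstream polymerase III promoters. Ssb had 76.0, 74.7, 76.8 and 77.0 CPM in B6N knockout forebrain, against 63.6, 64.9, 68.9 and 67.9 CPM in B6N forebrain, with no overlap. Its log2 fold change was 0.20 ± 0.04 (edgeR, adjusted p = 0.00601).

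Larp7 had 13.0, 15.3, 14.3 and 13.2 CPM in B6N knockout forebrain, against 10.3, 12.3, 11.4 and 11.96 CPM in B6N forebrain (log2 fold change 0.28 ± 0.07, adjusted p = 0.0351 by edgeR). Snapc1 averaged 43.9 ± 1.38 CPM in B6N knockout and 37.8 ± 0.709 CPM in B6N mice (SD, n = 4 each; 0.21 ± 0.04, adjusted p = 0.00573 by edgeR). Over all 51 partners, 6 (11.8%) had every B6N knockout library above every B6N library, where 4.44% of all genes did. Another 2 (3.92%) had every one below, near the 4.14% of all genes. The 6 were these 3, Snapc5, Srp72 and Srpr, and the 2 were Srp14 and Nop10. An offset for transcript length ended all 3 calls, with adjusted p-values of 0.113 for Ssb, 0.313 for Larp7 and 0.702 for Snapc1, and the call of Larp7 was also lost in 5 of 8 fits that left out 1 mouse. The RNAs that these proteins serve were not called in the same mice, as given above.

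In B6J minus B6N mice 1 of the 51 rose, a share of 1.96% that is near the 1.73% of all genes called. It was Hexim1, the inhibitor that 7SK brings to P-TEFb. Hexim1 had 41.2, 37.1, 40.4 and 39.1 CPM in B6J forebrain, against 34.3, 33.5, 36.02 and 33.4 CPM in B6N forebrain, with no overlap (log2 fold change 0.20 ± 0.05, adjusted p = 0.0268 by edgeR). The call was lost in 6 of 8 fits that left out 1 mouse and with the offset for transcript length (adjusted p = 0.156). B6J transgenic mice averaged 34.7 ± 1.68 CPM (SD, n = 4), and the difference of B6J minus B6J transgenic mice, 0.18 on the log2 scale, did not pass (adjusted p = 0.134 by edgeR). DESeq2 called 2 of the 51 in B6J minus B6N mice, the other being Srp14, a protein of the signal recognition particle (-0.18, adjusted p = 0.0482 by DESeq2 and 0.0594 by edgeR).

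In B6J minus B6J transgenic and in B6J transgenic minus B6N mice edgeR called 0 of the 51 (5 and 0 at an unadjusted p under 0.05, 0 and 0 by DESeq2). In B6J knockout mice edgeR called 0 of the 51 in both comparisons (11 against B6J transgenic and 6 against B6J mice at an unadjusted p under 0.05, 1 and 0 by DESeq2, the 1 being Pou2f1). By list, the 10 genes of the 7SK particle and P-TEFb had a median log2 fold change of -0.02 in B6N knockout minus B6N mice, the 11 proteins of RNase P and MRP -0.03, the 10 of the signal recognition particle and its receptor 0.03, the 3 of the Ro and La group 0.01, the 9 of telomerase 0.03 and the 8 promoter factors 0.04. The median of all genes was -0.0014. In the signal recognition particle list 5 of the 10 were at an unadjusted p under 0.05 and 0 were called. Its lowest estimate was that of Srp54b, at 10.3, 20.3, 5.12 and 20.3 CPM in B6N knockout forebrain, against 19.3, 29.1, 33.5 and 29.1 CPM in B6N forebrain (-0.98 ± 0.31, adjusted p = 0.167 by edgeR), named after its values were seen. The groups overlap, and Srp54a, Srp54b and Srp54c are close copies whose reads could be split. The kinase Cdk9 (0.06), its cyclin Ccnt1 (-0.04), Mepce (-0.03), the RNase P protein Pop1 (0.02), Srp9 (0.01), the Ro60 gene Trove2 (-0.03) the RNase P and MRP proteins Rpp25 (0.20) and Rpp38 (0.23), Srp54a (-0.18), Tert (0.07) and the telomerase protein Dkc1 (0.03) were among those not called.

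**Figure D5:**
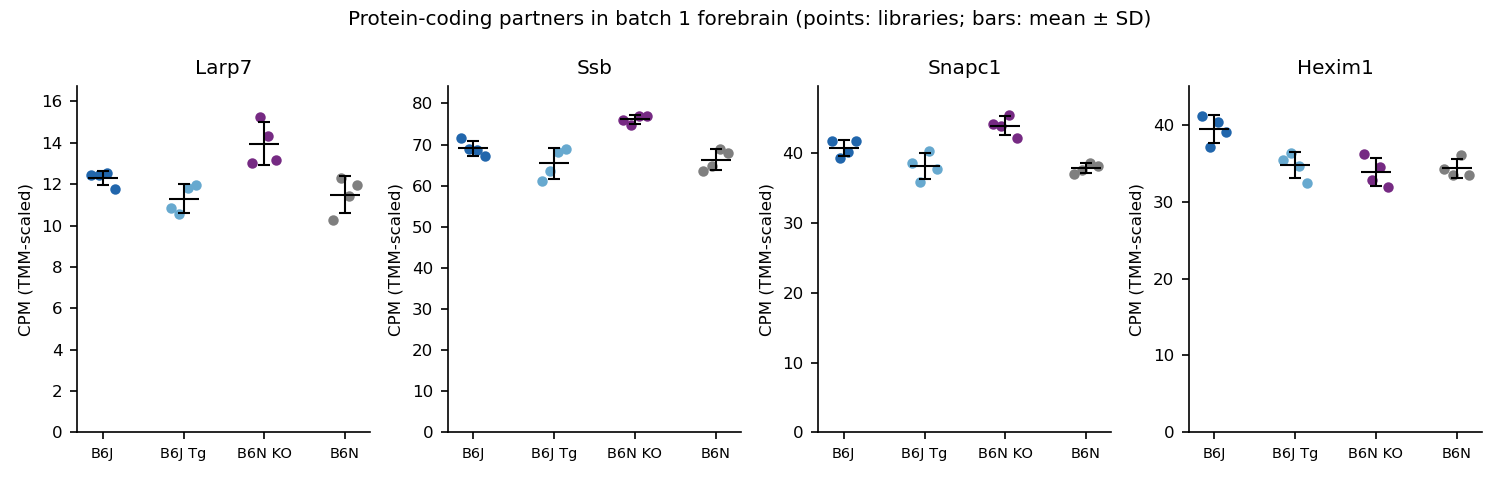
TMM-scaled CPM (vertical axis, from 0) of the 4 partner genes called in batch 1, Larp7, Ssb, Snapc1 and Hexim1, by group; points are libraries and bars the mean ± SD of 4 mice. Ssb is at 74.7 to 77.0 CPM in B6N knockout libraries and at 63.6 to 68.9 CPM in B6N libraries, and Hexim1 is at 37.1 to 41.2 CPM in B6J libraries and at 33.4 to 36.02 CPM in B6N libraries.

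The other polymerase III RNAs that passed the filter on low counts were Bc1, the vault RNA Vaultrc5 and Rn7s6, a further 7SL copy. The U6 gene Rnu6 was at 0.0986 CPM or less in every forebrain library and was not tested. In the 4 comparisons within batch 1 edgeR and DESeq2 called 0 of these 3, and 0 had an unadjusted p under 0.05. In B6J knockout minus B6J transgenic mice Rn7s6 was called (log2 fold change 1.09 ± 0.23, adjusted p = 0.019 by edgeR), at 5.47, 5.11, 7.71 and 6.41 CPM in B6J knockout libraries, against 2.88 CPM in the repeat library and 6.08 to 8.09 CPM in the batch 1 libraries of B6J transgenic mice. As for Rn7sk, the sign turned without the batch term (-0.21), and reads of Rn7s6 may be shared with the other 7SL copies, so its level is uncertain. Of the 13 small nuclear and U3 RNAs made by polymerase II, edgeR called 0 in each comparison within batch 1, with 5 at an unadjusted p under 0.05 in B6J minus B6J transgenic mice, where DESeq2 called 1, Rnu12 (log2 fold change -0.74 and adjusted p = 0.188 by edgeR). Some of the 13 are copies with equal values, such as Rnu1b1 and Rnu1b2 or Rnu3b1 and Rnu3b2, so the 5 need not be separate measurements. Of 8 long nuclear noncoding RNAs, Miat fell by 0.18 in B6N knockout minus B6N mice (adjusted p = 0.0147 by edgeR), a call lost in 4 of 8 fits that left out 1 mouse. DESeq2 called 2 of the 8 there, the other being Snhg11 (-0.12, adjusted p = 0.015 by DESeq2).

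The genes most like Rn7sk across the 16 batch 1 libraries, by Pearson correlation of log2 CPM, were Rpph1 (0.87), Stmn3 (0.85), Hist1h3g (0.85), Ube2s (0.84), Ergic3 (0.81), Tmem246 (0.80), Fau (0.80), Vstm2l (0.79), Rpl14 (0.79) and Scarna13 (0.78). The order among these listed genes depended on the measure. Without the 2 libraries farthest from the median of Rn7sk, Stmn3 (0.80), Rpl14 (0.79) and Hist1h3g (0.77) came before Rpph1 (0.76). By Spearman correlation Rpl14 (0.89), Stmn3 (0.87), Fau (0.84), Hist1h3g (0.81) and Tmem246 (0.81) did so, against 0.79 for Rpph1. Rmrp, which is not among those listed (0.43 over the 16 libraries), was at 0.762 without those 2 libraries, above the 0.757 of Rpph1. The points share library preparation, and no p is given.

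Hippocampus gave data that the choice of members did not use, but from RNA selected for a poly(A) tail, which these RNAs lack in the main. All 8 were listed among the 54752 genes of the RNA table and 0 of 8 among the 22523 genes of the footprint table. Rn7sk had 61, 31 and 33 counts in B6N knockout libraries, against 28, 24 and 22 counts in B6N libraries, in libraries of 35.8 M to 60.4 M counts. It averaged 0.889 ± 0.143 CPM in B6N knockout and 0.563 ± 0.105 CPM in B6N hippocampus (SD, n = 3 each). All 3 B6N knockout libraries lay above all 3 B6N libraries. The share of all genes with that pattern was not counted, so nothing is read from it. Other markers also differed between these libraries. B6N knockout 1 held Xist at 1243 CPM and Ddx3y at 0.336 CPM, the female pattern, while the other 5 held Ddx3y at 45.9 to 56.2 CPM. The 17 choroid plexus markers summed to 2580, 285 and 6696 CPM in B6N knockout libraries, against 4564, 460 and 336 CPM in B6N libraries, and 17 of 17 had a higher estimate in B6N knockout mice (median log2 fold change 0.78, 0 called). Without B6N knockout 1 the fitted difference of Rn7sk was 0.54; the part of the choroid plexus markers was not tested. The log2 fold change of 0.67 ± 0.25 did not pass (edgeR, adjusted p = 0.543), although it was under 0.05 before adjustment, and DESeq2 did not call it. Of the 19352 genes tested, 8 passed, or 0.0413%.

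Rn7sk was the only member to pass the filter on low counts in hippocampus. Rmrp had 0 counts in all 6 libraries, which allows up to 0.0496 to 0.0837 CPM per library (3 counts; counting error only), and the other members had 0 to 7. Bc1, the polymerase III RNA whose own sequence holds an A-rich stretch, was captured at 1190, 3198 and 1294 counts in B6N knockout libraries, against 659, 3528 and 880 counts in B6N libraries. Its log2 fold change was 0.28 ± 0.86 (edgeR, adjusted p = 0.956), and the groups overlap.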

How the data were processed

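The authors deposited forebrain values as estimated counts per transcript in the layout kallisto writes, with effective lengths and TPM, and hippocampus values as counts per gene. Build mm10 and the tools featureCounts, Bowtie2 2.2.3, HISAT2 2.1.0 and kallisto 0.42.4 come from the submitters' processing notes, without saying which file each made. Per the labels' protocols, forebrain libraries were strand-marked and hippocampus RNA was selected with poly(dT); the protocol text calls the hippocampus mice B6JN while the strain label gives C57BL/6NJ.

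Here, the authors' estimated counts of 138835 transcripts were summed per gene and rounded. Tests used edgeR 4.0.16 in R 4.3.3 (TMM, filterByExpr at a minimum count of 10, robust quasi-likelihood, two-sided, Benjamini-Hochberg over all genes), checked on simulated counts. The 16 batch 1 libraries were fitted together. The fit of all 21 gave transgenic mouse 4 its own coefficient beside a batch term. The batch difference in B6J knockout comparisons therefore rests on 1 pair of libraries. The fit matches that pair exactly, so the SE takes its spread from the other libraries and not from repeats between batches. Hippocampus RNA (6 libraries) was fitted alone. Biological coefficients of variation were 7.04%, 7.93% and 14.0%. CPM uses TMM-scaled totals of all 21 libraries; per kilobase values divide by annotated length, and the deposited TPM served as the alternative. Alternatives were DESeq2 1.42.0, relative log expression scaling, no filter, an offset for transcript length, a replicate block and leaving out each mouse.

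The members and lists were chosen with earlier results of these data known. Genes named were the members, partner genes called or at the core of each particle, listed small RNAs, and the 10 genes most correlated with Rn7sk. Libraries are taken as separate mice, as titled, so p-values measure the spread between these samples. RefSeq windows for the members' sequences were not used here.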

Additional observations from a re-analysis of the deposited data

How the results depend on the processing

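The numbers of genes called at an adjusted p under 0.05 depended on some settings. With an offset for transcript length they were 174 for B6N knockout minus B6N (481 in the fit reported), 6 for B6J minus B6J transgenic (63), 143 for B6J minus B6N (434), 55 for B6J transgenic minus B6N (92), 68 for B6J knockout minus B6J transgenic (165) and 12 for B6J knockout minus B6J (26). DESeq2 gave 157 for B6J minus B6J transgenic, 470 and 141 for the 2 B6J knockout comparisons in the same order, and 138 in hippocampus (8 by edgeR). Without a filter 106 were called for B6J minus B6J transgenic and 135 in hippocampus. With transgenic mouse 4 entered as an ordinary mouse the B6J knockout counts were 1739 and 282. With no batch term and no repeat library, chosen after the data were seen, they were 3615 and 3302, and Rn7sk turned to -0.21 and -0.20 and Rn7s6 to -0.21. The causes were not tested. Rn7sk in the pair of libraries of transgenic mouse 4 was -0.79 unscaled and -0.59 by TPM.

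Leaving out each mouse gave 262 to 751 calls for B6N knockout minus B6N, 16 to 196 for B6J minus B6J transgenic, 216 to 426 for B6J minus B6N, 53 to 176 for B6J transgenic minus B6N, 133 to 362 for B6J knockout minus B6J transgenic, 10 to 29 for B6J knockout minus B6J and 0 to 10 in hippocampus. Transgenic mouse 4 could not be left out of the fit with a batch term. Mice with the same number did not deviate together (correlations of -0.27 to 0.097), so the numbers do not pair them; a replicate block gave 513, 64, 496, 97, 197, 27 and 6 calls in the same order and kept Rn7sk at 0.72 and 0.73 in B6J knockout mice. Adjusted p-values over the alternatives planned ran from 0.00112 to 0.113 for Ssb, 0.0226 to 0.313 for Larp7, 0.0024 to 0.702 for Snapc1, 0.0167 to 0.156 for Hexim1, 0.00467 to 0.106 for Miat, 0.000357 to 0.181 for Rn7s6 and 0.538 to 0.871 for Rn7sk in hippocampus. Low counts limit Terc in forebrain and, in poly(A)-selected hippocampus RNA, every member other than Rn7sk.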
